A study of Mus musculus with 15 samples.

Results

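The genes of antigen presentation by MHC class II were described in mammary tissue of single mice exposed to BDE-47, a polybrominated diphenyl ether (PBDE) once used as a flame retardant. The 10 genes, chosen by name among 52526 genes listed for each mouse, were H2-Aa, H2-Ab1, H2-Eb1, H2-DMa, H2-DMb1, H2-DMb2, H2-Oa, H2-Ob, Cd74 and Ciita. The tissue was the left 4th mammary fat pad of female nude mice, with 1 RNA library per mouse. The 7 BDE-47 mice were given BDE-47 over 16 weeks, at a targeted 0.03 mg/kg per day, from subcutaneous osmotic pumps first implanted after 8 weeks of age, and the 8 vehicle mice received pumps with PEG300 and 1% DMSO alone. All mice of both groups carried the nu/nu mutation of Foxn1, so they lacked a thymus and were poor in mature T cells, while B cells and innate immune cells were present. The study worked with nude mice because xenografts were also tested in them. The labels used here do not say which mice had a xenograft near the sampled fat pad, and its part in the values below was not tested.

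MHC class II molecules carry peptides from engulfed proteins to the surface of B cells, dendritic cells and macrophages, where CD4 T cells read them. H2-Aa and H2-Ab1 encode the alpha and beta chains of the I-A molecule, and H2-Eb1 encodes the beta chain of I-E. Cd74, the invariant chain, holds the peptide groove closed on the way to the endosome. There H2-DM (H2-DMa with H2-DMb1 or H2-DMb2) exchanges the remnant of Cd74 for a peptide, and H2-DO (H2-Oa with H2-Ob), best known from B cells, restrains H2-DM. Ciita is the coactivator that switches these genes on together, by docking on factors bound to conserved X and Y boxes in front of their start sites.

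Of the 10 genes, 8 lay within the MHC region of chromosome 17 (build GRCm38.p6), from the start of H2-Oa at 34092379 to the end of H2-Eb1 at 34316674. RefSeq promoter windows of this build, from 250 bases before to 50 bases after a start site, were searched for 7 of the 10 genes. No window was searched for Cd74, Ciita or H2-Ab1, so whether they hold the letters below is not known here. The counts below cover the 7 other genes. The promoters are shown because they hold the elements through which Ciita acts on the group. The letters TGATTGG (Y box) and GNAAC (core of the X box), searched on both strands with 15 to 35 bases between them, were chosen after the windows of these genes had been read, so their presence here is a description. TGATTGG was found in 6 of the 8 windows of these genes (H2-DMa has 2), against 7.82% of 32851 promoter windows of all genes. GNAAC followed by TGATTGG was found in 5 of the 8, against 0.569% of all windows. Each segment below runs 5′ to 3′ on the strand of its gene, with 12 bases on either side of the matched letters, and the capitals mark these letters. H2-DMb2, in which the Y box letters alone were found, is shown over a similar length.
H2-Aa, minus strand, chr17:34287855-34287916: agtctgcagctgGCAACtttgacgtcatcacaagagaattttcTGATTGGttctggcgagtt
H2-Eb1, plus strand, chr17:34305764-34305824: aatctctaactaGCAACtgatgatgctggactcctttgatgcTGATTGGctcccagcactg
H2-DMb1, plus strand, chr17:34153085-34153146: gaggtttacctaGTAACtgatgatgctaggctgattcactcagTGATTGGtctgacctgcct
H2-DMb2, plus strand, chr17:34145115-34145175: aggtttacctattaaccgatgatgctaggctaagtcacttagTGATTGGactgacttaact
H2-Oa, plus strand, chr17:34092291-34092352: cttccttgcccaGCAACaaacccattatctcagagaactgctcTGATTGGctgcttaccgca
H2-Ob, plus strand, chr17:34238806-34238864: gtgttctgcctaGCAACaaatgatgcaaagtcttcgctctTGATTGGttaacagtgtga
The Y box letters began 45 to 92 bases before the start site. H2-DMb2 held the Y box letters without GNAAC, and the 2 windows of H2-DMa held neither set in these positions. These 2 windows, 34122582 to 34122881 and 34125268 to 34125567, lay inside the gene as listed (34119693 to 34139101). Other start sites of H2-DMa were not searched. A match in letters is not evidence of a bound site.

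The libraries were QuantSeq 3′ FWD, which counts 1 fragment near the 3′ end of each transcript, so the length of a transcript does not scale its value. Values were log2 of CPM (mapped reads of a gene scaled to a common library total), and every gene under 1 CPM was listed at 0. The 15 mice had 10.06 to 19.57 M mapped reads, so that a value of 0 stands for fewer than about 10.06 to 19.57 reads. Across the 10 genes and 15 mice, 49 of the 150 values were listed at 0, and the other values rested on 14 to 29778 reads. In bulk tissue, fewer cells of a type and less RNA per cell cannot be told apart. Replicates were separate mice.

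Vehicle mice 6 and 8 stood apart from the 13 other mice. They were the only mice with Cd79a, a subunit of the B cell receptor, above 0, at 5.81 and 5.35 log2(CPM). All 7 B cell markers (Cd79a, Cd79b, Ms4a1, Cd22, Pax5, Fcer2a and Cr2) were above 0 in both, with summed levels of 599 and 651 CPM, whereas the 13 other mice had 0 or 1 of the 7 above 0 and sums from 0 to 9.87 CPM. All 5 T cell markers were also above 0 in both, at 293 and 200 CPM in sum, against 0 to 10.9 CPM in the others. Markers of lymph node stroma (Ccl21a, Ccl19, Cxcl13, Glycam1 and Madcam1) summed to 816 and 1287 CPM, against 0 to 19.8 CPM. These sums came from Glycam1 (9.44 and 10.06 log2(CPM)) and Cxcl13 (6.91 and 7.76), with Madcam1 at 0 and 0.59, whereas Ccl21a and Ccl19 were listed at 0 in all 15 mice. Macrophage markers summed to 1580 and 2277 CPM, above the highest sum of the others (1003 CPM). Most of both sums came from Lyz2 (9.87 and 10.36 log2(CPM), against at most 7.78 in the others). C1qa was also above all others (7.99 and 8.11, against at most 7.46). The markers did not all rise, since Adgre1 and Cd163 were listed at 0 in both mice and Mrc1 (6.26 and 6.97) was below vehicle mouse 3 (7.39). The 4 adipocyte markers, by contrast, summed to 272 and 762 CPM, below the lowest of the other mice (2111 CPM), and the 4 epithelial markers to 30.5 and 105 CPM, against 93.2 to 1547 CPM. The labels describe these 2 mice no differently from the other vehicle mice, and each comparison is therefore given with all 15 mice and with the 13 mice that had Cd79a at 0.

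Class II transcripts were abundant in the same 2 mice. The 10 genes together made up 0.407% of mapped reads in vehicle mouse 6 and 0.566% in vehicle mouse 8, against 0.00695% to 0.0698% (median 0.0238%) in the 13 other mice. For 9 of the 10 genes, both mice were higher than every other mouse, and H2-DMa was the exception. The share of all listed genes for which both mice were higher than every other mouse was not counted. The lower of the 2 mice exceeded the highest other mouse 5.94-fold for H2-Aa, 5.69-fold for H2-Eb1, 5.45-fold for Cd74 and 4.04-fold for H2-Ab1, but 1.09-fold for H2-DMb1. The part of B cells or other cells in these levels was not tested. Among the 13 other mice, the 4 genes H2-Aa, H2-Ab1, H2-Eb1 and Cd74 made up 70.3% to 96.2% of the class II sum. The lowest sum, 69.5 CPM, was in BDE-47 mouse 6, which also had the lowest adipocyte and epithelial marker sums of the 13 mice, and the highest, 698 CPM, was in BDE-47 mouse 3.

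**Figure D1:**
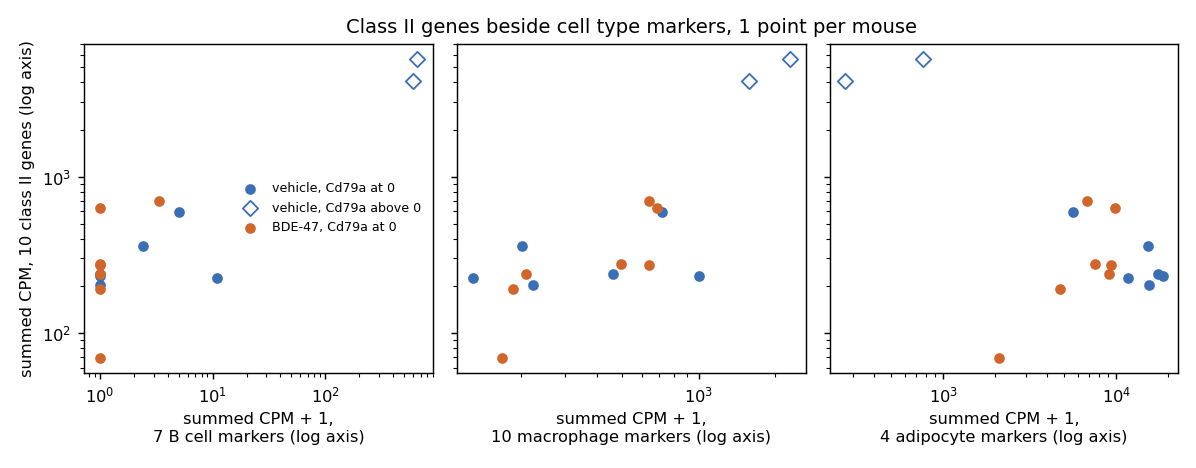
Summed CPM of the 10 class II genes (vertical log axis) against the summed CPM + 1 of B cell, macrophage and adipocyte markers (horizontal log axes), 1 point per mouse. Vehicle mice 6 and 8 (open diamonds) lie at 4071 and 5655 CPM of class II transcripts, with the highest B cell and macrophage sums and the lowest adipocyte sums, whereas the 13 other mice lie between 69.5 and 698 CPM.

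To test whether BDE-47 changed class II expression, the groups were compared gene by gene. With all 15 mice, 9 of the 10 genes were lower with BDE-47 and H2-DMa was higher, and the median difference of the 10 was -1.09 on the log2 scale (-0.92 over the 7 of them that were tested). Over the 9506 genes tested (at least 1 CPM in at least 7 mice), the median difference was -0.02 and 50.9% were lower. None of the differences passed the test across all genes. Limma (empirical Bayes with trend) called 0% of the 9506 genes at an adjusted p under 0.05, and the lowest adjusted p of a class II gene was 0.982. In the same fit 442 genes had an unadjusted p under 0.05, of which those lower with BDE-47 were 2.71% of the genes tested and those higher were 1.94%. The exact permutation test, adjusted over all tested genes, also called 0 genes, with 420 at an unadjusted p under 0.05. The filter on low values was passed by 7 of the 10 genes, and not by Ciita, H2-Oa or H2-Ob.

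Without vehicle mice 6 and 8, the lower levels with BDE-47 were no longer shared by most of the genes. Among the 13 mice, 5 genes were lower with BDE-47, 4 were higher and H2-Oa was listed at 0 in every mouse. The median difference of the 10 genes was -0.06 (0.018 over the 6 that were tested), against -0.07 over the 9670 genes tested (at least 1 CPM in at least 6 mice), of which 53.4% were lower. Limma again called 0% of genes, with 435 at an unadjusted p under 0.05 (2.87% lower and 1.62% higher) and a lowest adjusted p of 0.427 for any gene. The filter was passed by 6 of the 10 genes. In both comparisons the values of the groups overlapped for all 10 genes. The share of all genes with such an overlap was not counted. A gene listed at 0 in mice of both groups, such as H2-Oa, overlaps through the floor alone.

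**Figure D2:**
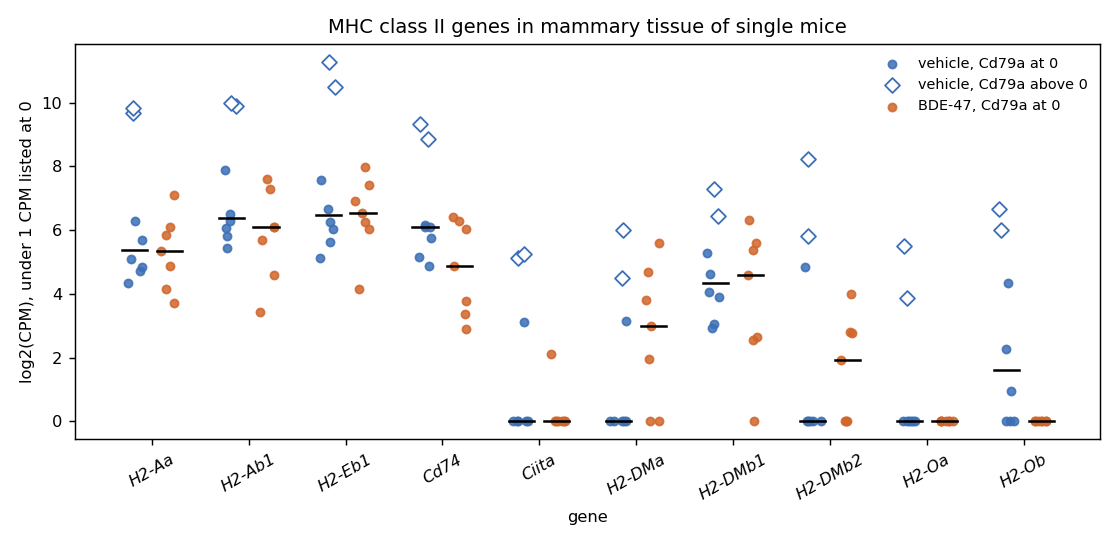
Log2(CPM) of each class II gene in every mouse, with genes under 1 CPM at 0, points for single mice, open diamonds for vehicle mice 6 and 8, and bars for group medians. The 2 open diamonds lie above all other points for every gene but H2-DMa, and the filled points of vehicle and BDE-47 mice overlap.

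H2-Aa, H2-Ab1 and H2-Eb1, which encode class II chains at the cell surface, were detected in every mouse. This did not hold for the class II entries outside the 10 genes. H2-Ea-ps, the entry that covers H2-Ea, was above 0 in vehicle mouse 6 alone (6.67 log2(CPM)). H2-Eb2 was above 0 only in vehicle mouse 8 (4) and BDE-47 mouse 3 (1.96). For H2-Aa, vehicle mice ranged from 4.35 to 9.83 log2(CPM) with a median of 5.38, and BDE-47 mice from 3.70 to 7.11 with a median of 5.35. The medians thus nearly coincided, and the difference in means of -1.0 (SE 0.70, exact permutation p = 0.321) became 0.15 without vehicle mice 6 and 8 (exact permutation p = 0.792). H2-Eb1 likewise had medians of 6.47 in vehicle mice (5.12 to 11.28) and 6.55 in BDE-47 mice (4.14 to 7.99). Its difference of -0.92 (SE 0.66, exact permutation p = 0.371) became 0.25 in the 13 mice (exact permutation p = 0.682). The sign of both differences thus changed with 2 animals, and the signs in the 13 mice also rested on 1 animal. Without BDE-47 mouse 3 the differences among them were -0.15 for H2-Aa and -0.0012 for H2-Eb1, and without vehicle mouse 3 that of H2-Aa was -0.01.

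H2-Ab1, the partner chain of H2-Aa, ranged from 5.45 to 9.99 in vehicle mice with a median of 6.39, and from 3.44 to 7.62 in BDE-47 mice with a median of 6.11. It was lower with BDE-47 by both sets of mice, with differences of -1.40 in the 15 mice (SE 0.62, exact permutation p = 0.131) and -0.49 in the 13 mice (exact permutation p = 0.484). The limma interval of the first difference was -2.66 to -0.13, with an adjusted p of 0.982, and that of the second, -1.59 to 0.61, included 0. The lowest values of H2-Ab1 were in BDE-47 mice 6 and 7, at 3.44 and 4.60. Leaving out mouse 6 as well brought the difference in the remaining mice to -0.09 (exact permutation p = 0.857).

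Cd74, the invariant chain that every new class II molecule needs, differed most between the groups among the genes present in every mouse. In the 15 mice it ranged from 4.86 to 9.32 with vehicle and from 2.90 to 6.40 with BDE-47, and the median was 4.89 with BDE-47. The difference was -1.73 (SE 0.66, limma 95% interval -3.06 to -0.41), with an exact permutation p of 0.0545 and a limma adjusted p of 0.982. Leaving out 1 mouse at a time moved the exact permutation p between 0.0403 and 0.117, and it fell under 0.05 without vehicle mouse 3 or 4 or without BDE-47 mouse 3, 4 or 7. In the 13 mice the difference was smaller, -0.89 (SE 0.64, interval -2.17 to 0.40, exact permutation p = 0.191).

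Within the 13 mice, Cd74 was spread more widely with BDE-47 than with vehicle. The 6 vehicle mice lay between 4.86 and 6.17 (mean 5.69 ± 0.55, SD), whereas the BDE-47 mice had a mean of 4.81 ± 1.47 (SD, n = 7). BDE-47 mice 6, 1 and 5 were below every vehicle mouse, at 2.90, 3.37 and 3.77. BDE-47 mice 7 and 3, at 6.28 and 6.40, were above the highest of these 6 vehicle mice. The wider spread was not particular to Cd74. H2-Aa, H2-Ab1 and H2-Eb1 had SDs of 1.17, 1.46 and 1.23 with BDE-47, against 0.71, 0.84 and 0.85 with vehicle. The epithelial markers Krt8 (2.54 against 1.14), Krt18 (1.12 against 0.67) and Epcam (1.55 against 0.61) were also more spread with BDE-47. Krt14 was not (1.49 against 1.68). For Krt8, Krt18 and Epcam, BDE-47 mouse 6 lay far below the other BDE-47 mice, at 0.99, 6.12 and 3.97. The lowest values among the other BDE-47 mice were 7.07, 8.73 and 7.39. BDE-47 mouse 6 was also the lowest mouse for H2-Aa, H2-Ab1, H2-Eb1 and Cd74, and the spread without it was not computed. The differences in spread were seen in the values and were not tested. With a limma interval of -2.17 to 0.40, these mice do not show that Cd74 was equal in both groups.

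**Figure D3:**
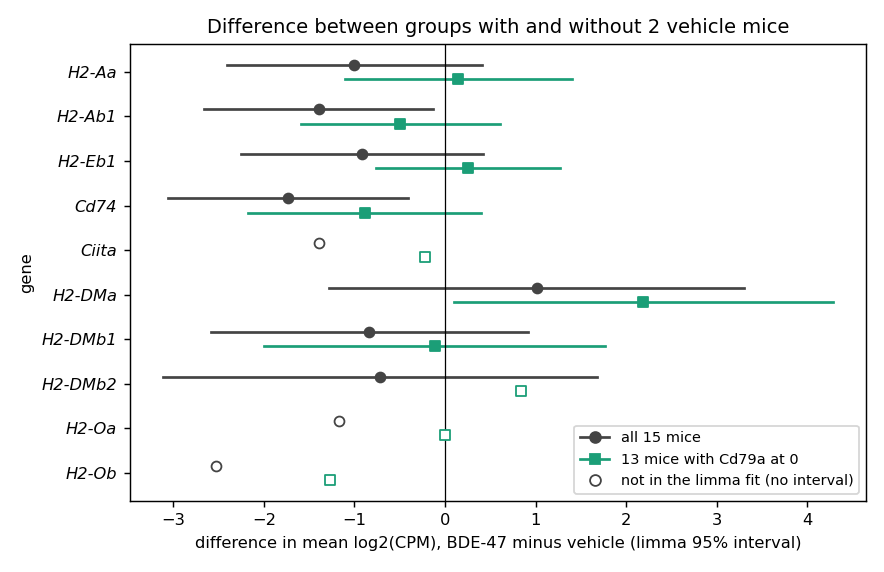
Difference in mean log2(CPM), BDE-47 minus vehicle, for each class II gene in all 15 mice (circles) and in the 13 mice with Cd79a at 0 (squares), with 95% intervals from limma and open symbols for genes outside the fit. With 15 mice every gene but H2-DMa lies below 0, and with 13 mice 4 genes lie above 0, 5 lie below and H2-Oa is at 0.

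The peptide exchange genes did not share one direction. H2-DMa, the alpha chain of H2-DM, was the only one of the 10 genes that was higher with BDE-47 in the 15 mice. In the 13 mice H2-Aa, H2-Eb1 and H2-DMb2 were higher as well. It was above 2 log2(CPM) in vehicle mice 3 (3.16), 6 (4.50) and 8 (5.99), while vehicle mouse 4 held 14 reads at 1 CPM and the 4 other vehicle mice were listed at 0. In BDE-47 mice it was above 0 in 5 of 7, at 1.95, 3.82, 5.59, 4.69 and 2.98 in mice 1, 3, 4, 5 and 6. The difference was 1.01 in the 15 mice (SE 1.14, exact permutation p = 0.411). Among the 13 mice it was 2.19 (SE 1.05, limma 95% interval 0.10 to 4.28), with an exact permutation p of 0.0618 and a limma adjusted p of 0.993. The exact permutation p was 0.0455 without vehicle mouse 3, 0.0411 without BDE-47 mouse 2 or 7, and 0.152 without BDE-47 mouse 4. With median-of-ratios size factors it was 0.042, and the difference was 2.29.

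H2-DMb1, a beta chain of H2-DM, was above 0 in 14 of 15 mice and ranged from 2.94 to 7.29 with vehicle and from 0 to 6.32 with BDE-47. The medians were 4.34 and 4.58, and the differences were -0.83 in the 15 mice (SE 0.87, exact permutation p = 0.416) and -0.11 in the 13 mice (exact permutation p = 0.915). The second difference turned to 0.048 with median-of-ratios size factors and to 0.53 without BDE-47 mouse 2, the mouse in which H2-DMb1 was listed at 0. H2-DMb2, the second beta chain, was above 0 in vehicle mice 6, 7 and 8 (5.81, 4.83 and 8.24) and in BDE-47 mice 1, 2, 3 and 6 (2.78, 4.01, 1.93 and 2.79). Its difference was -0.72 in the 15 mice (SE 1.18, exact permutation p = 0.628), 0.12 without vehicle mouse 8 and 0.84 in the 13 mice (exact permutation p = 0.478). H2-DMb1 and H2-DMb2 are neighbouring genes of closely similar sequence, so that reads could be assigned to either and the values of each are uncertain. The CPM of both genes summed, a measure added after their values were seen, gave a log2 difference of -0.54 in the 15 mice (exact permutation p = 0.559) and 0.45 in the 13 mice (exact permutation p = 0.502).

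The H2-DO genes were mostly under the floor. H2-Oa was above 0 in vehicle mouse 6 (3.86) and vehicle mouse 8 (5.50) and listed at 0 in the other 13 mice, so that it gave no comparison among mice without Cd79a. H2-Ob was above 0 in 5 of 8 vehicle mice, at 0.96 in mouse 1, 4.35 in mouse 2, 6.67 in mouse 6, 2.28 in mouse 7 and 6.00 in mouse 8, and listed at 0 in all 7 BDE-47 mice. Its difference from the floor, -2.53 in the 15 mice, had an exact permutation p of 0.0443, the lowest of the 10 genes and the only one under 0.05. The gene was outside the limma fit, and the p is not adjusted for the genes tested.

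H2-Ob did not keep that p in most sets of mice. It was 0.0549 without any 1 of the BDE-47 mice and 0.0699 without vehicle mouse 1, 2, 6, 7 or 8, while it was 0.021 without vehicle mouse 3, 4 or 5. In the 13 mice the difference was -1.27 (exact permutation p = 0.0699), and without vehicle mouse 3, 4 or 5 it was -1.52 (exact permutation p = 0.0455). Without vehicle mouse 2 it was -0.65, and the exact permutation p was 0.152 without vehicle mouse 1, 2 or 7 and 0.182 without any 1 of the BDE-47 mice. The 3 vehicle mice with H2-Ob above 0 in this set each had 1 of the 7 B cell markers above 0, namely Cd79b in mouse 1, Ms4a1 in mouse 2 and Cr2 in mouse 7. In the remaining 10 mice, 1 mouse (BDE-47 mouse 3, with Ms4a1) had a B cell marker above 0. The marker sums were 1.43, 4.05 and 9.87 CPM in vehicle mice 1, 2 and 7. H2-Ob was at 1.95, 20.5 and 4.87 CPM in the same mice, so that the sizes were not in the same order. Vehicle mouse 2 also had 2 T cell markers above 0, with a sum of 10.9 CPM. The part of B cells or other cells in the difference of H2-Ob was not tested.

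Ciita, the regulator of the group, was above 0 in 4 of 15 mice. The values were 3.12, 5.14 and 5.25 in vehicle mice 3, 6 and 8, and 2.11 in BDE-47 mouse 3. The difference was -1.39 in the 15 mice (exact permutation p = 0.251) and -0.22 in the 13 mice (exact permutation p = 0.731), where it turned to 0.30 without vehicle mouse 3. H2-Aa, H2-Ab1, H2-Eb1 and Cd74 were above 0 also in the 11 mice with Ciita listed at 0, in which fewer than about 10.06 to 19.57 Ciita reads were counted.

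The 4 abundant genes were next compared with each other across the 13 mice, with Cd74 as the reference. H2-Aa followed Cd74 most closely of the class II genes, with Pearson's r = 0.773 (permutation p = 0.00194) and Spearman's rho = 0.813 (permutation p = 0.00131), and ranked 14 of 9669 genes by r. The r was 0.720 among the 6 vehicle mice, 0.919 among the 7 BDE-47 mice and 0.759 without BDE-47 mice 6 and 1, the 2 mice farthest from the median of Cd74. For H2-Ab1 r was 0.527 (permutation p = 0.0642) with a rho of 0.368 (permutation p = 0.216), and r fell to 0.249 without those 2 mice. H2-Eb1 had an r of 0.485 (permutation p = 0.0935) and a rho of 0.407 (permutation p = 0.168), with 0.231 without the 2 mice, so that both relations rested on them. Among the 6 vehicle mice alone, r was 0.225 for H2-Ab1, 0.152 for H2-Eb1, 0.112 for H2-DMb1 and -0.737 for H2-DMa, and among the 7 BDE-47 mice it was 0.548, 0.696, 0.526 and -0.02. H2-DMb1 had an r of 0.456 (permutation p = 0.119) with a rho of 0.621 (permutation p = 0.0265), and r was 0.601 without the 2 mice. H2-DMa had an r of -0.309 (permutation p = 0.306) and a rho of -0.335 (permutation p = 0.26), with -0.286 without the 2 mice.

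After Benjamini-Hochberg adjustment over 9669 genes, 0 correlations with Cd74 passed, and 417 had an unadjusted permutation p under 0.05. The adjusted p of the 5 class II genes was 0.999 for r and 1 for rho. The genes outside the group with the highest r were Myd88 (0.834), an adaptor of Toll-like receptors, Gm2a (0.817), a lysosomal activator of ganglioside breakdown, Rps7 (0.808), a ribosomal protein, Acy3 (0.806), an aminoacylase, and Gpx8 (0.789), a peroxidase of the endoplasmic reticulum. These 5 are named as a description of likeness over 13 mice.

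**Figure D4:**
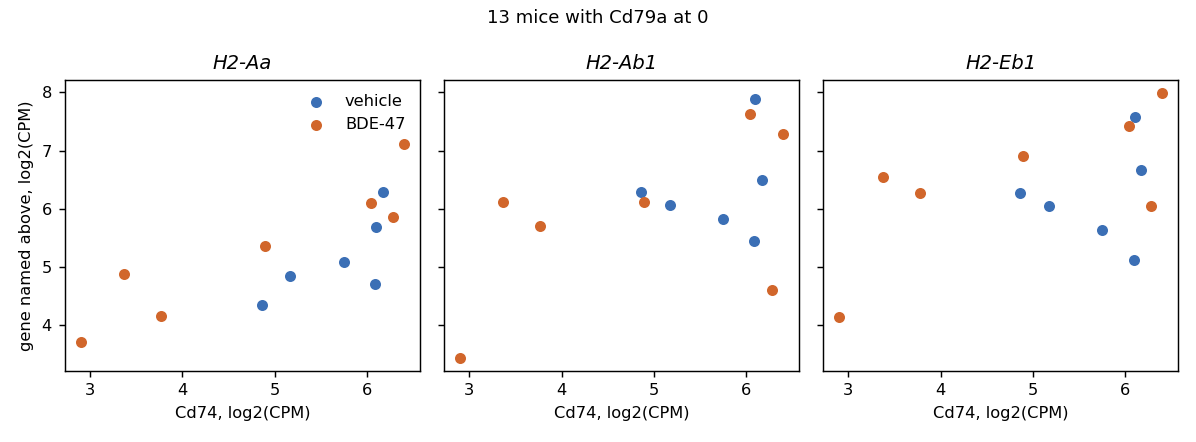
Log2(CPM) of H2-Aa, H2-Ab1 and H2-Eb1 against that of Cd74 in the 13 mice with Cd79a at 0, 1 point per mouse, colored by group. H2-Aa rises with Cd74 in both groups (r = 0.773 over 13 mice), and the lowest point of each panel is BDE-47 mouse 6.

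The balance between Cd74 and the class II chains was also read within each mouse, where it does not depend on the scaling of the library. Cd74 was above H2-Aa in 5 of the 6 vehicle mice with Cd79a at 0, by a log2 ratio of up to 1.38, and in 1 of 7 BDE-47 mice. The BDE-47 mice had a median ratio of -0.46, with a range of -1.5 to 0.43. In vehicle mice 6 and 8, H2-Aa was above Cd74, with ratios of -0.83 and -0.51. Against the other chains there was no such split, since Cd74 was above H2-Ab1 in 1 of 6 vehicle and 1 of 7 BDE-47 mice, and above H2-Eb1 in 2 of 6 and 1 of 7. H2-Eb1 was above H2-Ab1 in 1 of those 6 vehicle mice (-0.32 to 0.17) and in 6 of 7 BDE-47 mice (-0.20 to 1.45), and also in vehicle mice 6 (0.60) and 8 (1.30). These ratios were chosen after the values had been seen and were not tested.

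Genes that act around the class II molecules gave a similar picture. A list of 32 pathway genes was followed, of which 30 were found and 23 were tested, namely 14 of the regulators, 8 of the endosomal processing genes and 1 of the genes for turnover. In the 15 mice, 17 were lower with BDE-47 and 6 were higher, with a median of -0.27, while 50.9% of all tested genes were lower. Limma called 0 of them, with 3 at an unadjusted p under 0.05 (Creb1, Ifngr1 and Ifi30), against 442 of the 9506 genes tested. Ifngr1, a chain of the interferon gamma receptor, differed by -1.41 (exact permutation p = 0.0141) in the 15 mice and by -1.18 in the 13 mice (exact permutation p = 0.06). In the 13 mice, 11 were lower and 12 higher, with a median of 0.04, while 53.4% of all tested genes were lower. Of these pathway genes, 0 had an unadjusted limma p under 0.05, against 435 of the 9670 genes tested. All 8 processing genes, which cut or reduce proteins in the endosome, were lower in the 15 mice (median -0.61), and 7 of 8 were lower in the 13 mice (median -0.46). Of the 14 regulators tested in each set of mice, 9 were lower in the 15 mice (median -0.25) and 4 in the 13 mice (median 0.09). The tested genes were not all the same, since Nfya was tested only in the 15 mice and Nfyc only in the 13 mice.

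Among the 23 tested genes, the largest differences in the 15 mice were as follows. Ifi30, the thiol reductase that opens disulfide bonds of antigens in the endosome, was above 0 in 8 of 8 vehicle mice, with 1.80 as the lowest and 7.52 as the highest value. It was above 0 in 5 of 7 BDE-47 mice, up to 6.16, and the difference was -2.40 (exact permutation p = 0.0421, limma adjusted p = 0.982) in the 15 mice and -1.71 in the 13 mice (exact permutation p = 0.142). Creb1, a factor that binds next to the X box, was also above 0 in 8 of 8 and 5 of 7 mice, with differences of -1.98 (exact permutation p = 0.0544) and -1.72 (exact permutation p = 0.146). Ctsh, a cathepsin, differed by -1.54 and -0.94. The largest differences upward among the tested genes were in March8, a ubiquitin ligase that removes class II molecules from the surface (1.30 in 15 mice and 0.45 in 13 mice), in Nfya, a subunit of the Y box factor (0.90 and 1.20), and in Rfxap, a subunit of the X box factor (0.87 and 0.64). The exact permutation p of Ctsh and of these 3 genes was 0.217 or higher in both sets of mice. Genes outside the 15-mouse fit also reached this size. Nfyc, another subunit of the Y box factor, differed by 1.26 in the 15 mice (exact permutation p = 0.159) and 1.07 in the 13 mice. The costimulatory genes Cd86 and Cd40 differed by -1.73 and -1.58 in the 15 mice (exact permutation p = 0.2 for each) and by -0.22 and -0.55 in the 13 mice, with their highest values in vehicle mice 6 and 8.

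Markers of cells that carry class II were counted beside these results. In the 13 mice, the 10 macrophage markers summed to 129 to 1003 CPM with vehicle and to 167 to 686 CPM with BDE-47. Of the 9 that were tested, 3 were lower and 6 higher, with a median difference of 0.07 and 0 at an unadjusted p under 0.05. The 8 dendritic cell markers summed to 6.21 to 41.7 CPM with vehicle and to 0 to 38.0 CPM with BDE-47, and 1 of them was tested. This was Zbtb46, a transcription factor of classical dendritic cells, which was above 0 in 5 of 6 mice with vehicle and 3 of 7 with BDE-47. It differed by -2.10 in the 13 mice (exact permutation p = 0.0501, limma adjusted p = 0.993) and by -1.93 in the 15 mice (exact permutation p = 0.0628). The other dendritic cell markers, outside this fit, did not share one direction. In the 13 mice Batf3 differed by 0.68, Cd209a by 0.29 and Itgax by 0.01, whereas Clec9a and Xcr1 differed by -0.23 and -0.13. Ccr7 was listed at 0 in these 13 mice, and Flt3 in all 15 mice. The 4 adipocyte markers, which define the bulk of a fat pad, were all lower with BDE-47 in the 13 mice (median -0.91). Of these, 3 had an unadjusted limma p under 0.05, against 435 of the 9670 genes tested, and 0 passed after adjustment. Their sums were 5657 to 18520 CPM with vehicle and 2111 to 9783 CPM with BDE-47. The 4 epithelial markers summed to 328 to 1128 CPM with vehicle and to 93.2 to 1547 CPM with BDE-47. The part of any of these cell types in the class II differences was not tested.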

How the data were processed

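Mammary RNA of 15 mice was sequenced as QuantSeq 3′ FWD libraries. The authors mapped reads with STAR (2.5.3a, GRCm38, both per the submitters' processing notes) and scaled them to CPM. The authors deposited log2(CPM), with genes under 1 CPM at 0, as read from the values. No count test was run. Groups came from the labels. Depth (10.06 to 19.57 M reads) was recovered from the spacing of low CPM values. Of 52636 entries per mouse, 110 repeats of a gene name were dropped.

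Genes that reached 1 CPM in 7 or more of 15 mice, or in 6 or more of 13 mice, were tested with limma 3.58.1 (trend) in R 4.3.3, and single genes with the exact permutation test of mean log2(CPM), two-sided. The smallest p it can give is 0.000155 (8 against 7) or 0.000583 (6 against 7). P-values were adjusted by the Benjamini-Hochberg method over all tested genes. Limma intervals and SE are in log2 units. Permutation tests of correlations used 100000 resamples. The xenograft covariate of the study is not given per mouse in the sources used here and was not used. Scripts were tested on simulated data with normal noise and no floor, so that this did not cover values listed at 0. Python 3.11.15, numpy 2.4.6, pandas 2.3.3, scipy 1.17.1 and matplotlib 3.10.9 were used, and promoters came from RefSeq windows of GRCm38.p6, the build of the labels.

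The members, marker lists and pathway list were chosen with earlier results of these data known. A further B cell marker is not reported here. Named genes were all 10 members, the 3 largest pathway differences in each direction among the genes tested in the 15 mice, and the 5 non-members with the highest r with Cd74. Nfyc, Cd86, Cd40, Ifngr1, H2-Ea-ps, H2-Eb2 and the single dendritic cell, macrophage and epithelial markers were added after their values were seen. March1 was not used because its name was not unique, March8 was read from a date form of its name, and H2-Ea is covered by the entry H2-Ea-ps. Alternatives were log2(CPM + 1), log2(CPM + 0.1), median-of-ratios size factors, the log2 ratio of mean CPM, other filters, a replicate block, and leaving out each mouse or the mice with Cd79a.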

Additional observations from a re-analysis of the deposited data

Results flagged for a closer look

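Ciita in BDE-47 mouse 3 stood apart from its group, at 2.11 log2(CPM) against 0 in the 6 other BDE-47 mice. The same mouse had the highest class II sum of the BDE-47 mice. Chance alone singles out about 1 in 20 groups in this way, and a group with nearly all values at the floor does so whenever 1 value exceeds it.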

How the results depend on the processing

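Limma called 0 genes under every scale, filter, size factor and block tried in the 15 and in the 13 mice, and without each of the 15 mice. Without the mice with Cd79a above 0, the differences of H2-Aa, H2-Eb1 and H2-DMb2 reversed to 0.15, 0.25 and 0.84. The replicate block, which leaves out vehicle mouse 8 because it has no partner, reversed H2-DMb2 to 0.12 and gave H2-Ob -2.04 (exact sign-flip p = 0.125). The numbers did not pair the mice, with r of -0.02 to 0.05 between the deviations of same-numbered mice, and 3 of 7 pairs correlating best with their own number. The count of class II genes with an exact permutation p under 0.05, 1 in the 15 mice, was 0 under the block, under the log2 ratio of mean CPM and without the mice with Cd79a, and 0 to 2 when 1 mouse was left out. Leaving out 1 mouse moved H2-DMb2 from -1.11 to 0.12. In the 13 mice, alternatives added after the values were seen gave counts of 0 to 2 without 1 mouse and 1 with median-of-ratios size factors (H2-DMa), against 0. There H2-DMb1 was 0.048 with size factors, and leaving out 1 mouse moved H2-DMb1 from -0.52 to 0.53, H2-Aa from -0.15 to 0.42, Ciita from -0.52 to 0.30 and H2-Eb1 from -0.0012 to 0.64. In the 15 mice, 185 single-gene values kept their direction and side of the threshold, 15 (all H2-Ob) lost an exact permutation p under 0.05, 5 (all Cd74) gained one and 5 reversed. Sizes near the floor moved with the scale. With log2(CPM + 0.1) the difference was -4.62 for H2-Ob, -0.05 for H2-DMb2, 1.71 for H2-DMa, -1.31 for H2-DMb1, -2.16 for Ciita and -2.0 for H2-Oa. With the log2 ratio of mean CPM it was -7.92 for H2-Ob, -3.30 for H2-DMb2, 0.24 for H2-DMa, -2.24 for H2-Aa, -2.29 for H2-Eb1, -3.86 for Ciita and -6.24 for H2-Oa. The floor of 1 CPM limits Ciita, H2-Oa, H2-Ob, H2-DMa and H2-DMb2, whose zeros are values under 1 CPM. Genes above this floor ranged from 6929 to 12682 per mouse. BDE-47 mouse 4, with 19.4 M mapped reads, had 6929, and BDE-47 mouse 1, with 10.06 M, had 10039.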
